A study of Mus musculus with 2 samples.

Results

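Arterial and venous endothelial cells line the larger vessels on either side of the capillary bed, and here they were taken from the mouse tibialis anterior muscle on day 2 and day 7 after injury with notexin, a toxin of snake venom that destroys myofibres. Members were the barcodes that the authors' annotation table names as artery or vein endothelial cells, matched to the deposited matrix of unique molecular identifier (UMI) counts of the same library. There were 74 such cells, 41 artery and 33 vein, among 6953 annotated barcodes and 9725 called barcodes in all. The day 2 library held 15 artery and 12 vein cells, and the day 7 library held 26 artery and 21 vein cells. Capillary endothelial cells of the same libraries, 159 on day 2 and 149 on day 7, served for comparison.

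Each time point was 1 library, made with 10x Genomics 3′ chemistry from a collagenase and dispase digest of whole muscle of a C57Bl/6 mouse, and uninjured muscle was not analysed here. The labels give both animals as females of 7 months. The annotation table gives a male of 4 months for day 2 and a male of 7 months for day 7, each with 1 mouse per sample. Transcripts of Y-linked genes were found in 24 of the 27 artery and vein cells on day 2 and in 35 of the 47 on day 7, with 0 UMIs of Xist, which goes against the label for sex. Time point, animal, age as tabulated and library therefore cannot be told apart. With 1 library per time point, and with an annotation that was made from the expression of these same cells, no difference between days or between types was tested. Every interval printed is a 95% interval and covers counting error only.

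Arterial and venous identity are set early in vessel development and kept up in the adult. In arteries, flow and Notch signalling, through the ligand Dll4 and target genes of the Hey family, go with ephrin-B2 (Efnb2) and the gap junction proteins of Gja4 and Gja5. In veins, the nuclear receptor Nr2f2 holds down Notch genes. Small venules are the place where leukocytes leave the blood during inflammation, with P-selectin (Selp) and von Willebrand factor (Vwf) stored in granules ready for release, and with the chemokine-binding receptor Ackr1 on the surface.

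The promoters of 2 arterial genes and 1 venous gene are shown as examples of genes that were at 0 UMIs in the cells of the other type. The 250 bases before the RefSeq start of each gene (build GRCm38.p6) are written 5′ to 3′ along the gene's strand, with every GGAA, the core of sites bound by ETS family factors of endothelial cells, or its reverse complement TTCC, in capitals. The 13 bases of the Sema3g window that fall in an annotated exon were left out. The 3 windows lie at chr3:97032152-97032401 for Gja5, at chr14:31217623-31217859 for Sema3g and at chr1:164115014-164115263 for Selp, each on the plus strand.
Gja5 promoter: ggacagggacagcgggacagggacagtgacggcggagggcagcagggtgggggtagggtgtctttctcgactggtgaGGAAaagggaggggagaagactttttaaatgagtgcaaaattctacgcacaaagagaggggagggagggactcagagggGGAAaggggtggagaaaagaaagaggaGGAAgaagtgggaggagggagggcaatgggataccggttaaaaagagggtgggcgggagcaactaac
Sema3g promoter: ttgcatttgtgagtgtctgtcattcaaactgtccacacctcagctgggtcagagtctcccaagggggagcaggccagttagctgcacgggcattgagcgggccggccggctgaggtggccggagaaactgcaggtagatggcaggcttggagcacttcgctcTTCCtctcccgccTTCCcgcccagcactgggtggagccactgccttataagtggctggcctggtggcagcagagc
Selp promoter: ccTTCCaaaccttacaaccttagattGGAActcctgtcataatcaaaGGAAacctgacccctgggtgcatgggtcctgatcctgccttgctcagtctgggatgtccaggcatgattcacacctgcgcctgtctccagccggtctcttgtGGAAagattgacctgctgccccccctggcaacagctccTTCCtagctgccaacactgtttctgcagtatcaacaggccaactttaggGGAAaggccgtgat
The arterial Gja5 window held 3 GGAA matches and the Sema3g window held 2, while the venous Selp window held 6. A GGAA match was found on either strand in 93.4% of 32851 windows of the same length, with a median of 3 a window, so that its presence sets none of the 3 genes apart. TGGGAA, the core of sites for the Notch effector Rbpj, was found in 0 of these 3 windows and in 21.6% of all windows. The windows of Ackr1 and Nr2f2, venous genes that were also at 0 in artery cells, held 7 and 6 GGAA matches and 1 and 0 TGGGAA matches. Both windows overlap annotated exons, of Ackr1 and Cadm3 and of B130024G19Rik, and these bases were not left out. The window of Sele, another venous gene at 0 in artery cells, held 3 GGAA matches and 1 TGGGAA match. The Gja5 window falls within an intron of a longer transcript of the same gene. The genes themselves lie at chr3:96904693-97077416 (Gja5), chr14:31217860-31230352 (Sema3g) and chr1:164115264-164150026 (Selp), all on the plus strand (GENCODE vM21, GRCm38).

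Vein cells of day 2 held more transcripts than any other group of members. Artery cells held a median of 8047 UMIs on day 2 (range 4020 to 13070) and 5428 on day 7 (2454 to 13558). Vein cells held a median of 20279.5 UMIs on day 2 (7473 to 60285), when 6 of 12 cells held more than 20000, against 6543 on day 7 (2705 to 18068). Capillary medians were 6992 and 5444. Levels are therefore given as CPM, the UMIs of a gene summed over the cells of a type in a library per 1000000 UMIs of those cells. The deepest cell supplied 22% of the day 2 vein sum, and between 8.12% and 11.4% of the other artery and vein sums. Results that rest on deep or single cells are given with that share.

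Artery and vein cells were a small part of the endothelium on both days. Of the annotated endothelial cells that passed the limits on cells given below, artery cells were 4.46% (2.52 to 7.26) of 336 on day 2. On day 7 they were 7.81% (5.16 to 11.2) of 333, a difference of 3.34 percentage points with an interval from -0.50 to 7.28. Vein cells were 3.57% (1.86 to 6.16) and 6.31% (3.95 to 9.48), a difference of 2.73 points (-0.77 to 6.34). These intervals count cells of a single library per day, so they give no test of a change between days. The balance between them was close to constant, with artery cells at 55.6% (35.3 to 74.5) and 55.3% (40.1 to 69.8) of the artery and vein cells.

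The markers given for these cells followed the annotation, with Vwf as the one that both types shared. The annotation was made from the same cells, so this describes it and is no test of it. Gja5 or Sema3g, which encodes a secreted class 3 semaphorin, was found in 12 of 15 artery cells on day 2 and 25 of 26 on day 7, and in 0 of 12 and 0 of 21 vein cells (with 3 cells taken as the limit of a count of 0, up to 25% and 14.3% of cells with a UMI). Selp, Ackr1 or Vwf was found in 11 of 12 and 18 of 21 vein cells, and in 6 of 15 and 16 of 26 artery cells. In the artery cells all of those UMIs were from Vwf. The other endothelial cells held these genes too. Endothelial cells that the annotation calls stem numbered 150 and 137 within the limits on cells. Gja5 or Sema3g was in 22.6% and 20.1% of capillary cells and in 22% and 24.8% of stem-labelled cells. Selp, Ackr1 or Vwf was in 19.5% and 25.5% of capillary and 21.3% and 18.2% of stem-labelled cells. Both Gja5 and Sema3g were found in 5 and 6 stem-labelled cells and in 0 capillary cells. Over the 10 arterial and 10 venous markers chosen for the purpose, 14 of 15 and 26 of 26 artery cells held more arterial than venous UMIs, and 12 of 12 and 21 of 21 vein cells held more venous ones. The single artery cell that went the other way, on day 2, held 2 arterial and 18 venous UMIs. Over 9 capillary markers, vein cells held medians of 66.5 and 29 UMIs, against 35.5 and 26 over the venous ones. Artery cells held medians of 23 and 21 capillary UMIs, against 21 and 24 arterial ones. Capillary cells held medians of 22 and 56 capillary UMIs.

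Among vein cells the venous markers were spread unevenly. Selp UMIs came from 5 of 12 cells on day 2 and from 13 of 21 on day 7, from 0 to 80 and 0 to 36 UMIs a cell with medians of 0 and 1, and 1 cell supplied 62.5% and 47.4% of them. Ackr1 came from 2 of 12 and 6 of 21 cells, with at most 20 and 10 UMIs. Vwf was more even, in 11 of 12 and 17 of 21 cells with a median of 3 UMIs on each day and a highest cell of 8 and 52. Plvap, the protein of the diaphragms that span venous caveolae and fenestrae, was in every vein cell, with a median of 11 UMIs on both days, and in 3 of 15 and 5 of 26 artery cells. Outside the endothelium, in macrophages and in FAPs (fibro-adipogenic progenitors, the stromal cells of muscle), Gja5 was found in 0 cells and Sema3g in at most 0.465% of cells. Selp was found in at most 1.39% of cells of those types and Vwf in at most 6.61%. Plvap and Ackr1 reached 21.4% and 9.69% of day 7 FAPs. Cells annotated as smooth muscle, 304 on day 2 and 232 on day 7 within the limits on cells, held endothelial genes as well, with Pecam1 in 94.7% and 86.2% of them. Among these cells Gja5 was found in 10.5% and 12.9%, Sema3g in 40.8% and 31.5%, and Vwf in 38.8% and 31.0%. Their arterial list summed to 3708 and 4551 CPM, with 0 of its 20 genes at 0, while day 7 FAPs held that list at 9316 CPM, 7994 CPM of it from Mgp, and artery cells at 7883 and 9397 CPM. In the cells annotated as smooth muscle Selp was in 1.32% and 1.72% of them and Ackr1 in 0. Ackr1 counts are uncertain because the gene overlaps an exon of Cadm3 on the same strand.

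**Figure D1:**
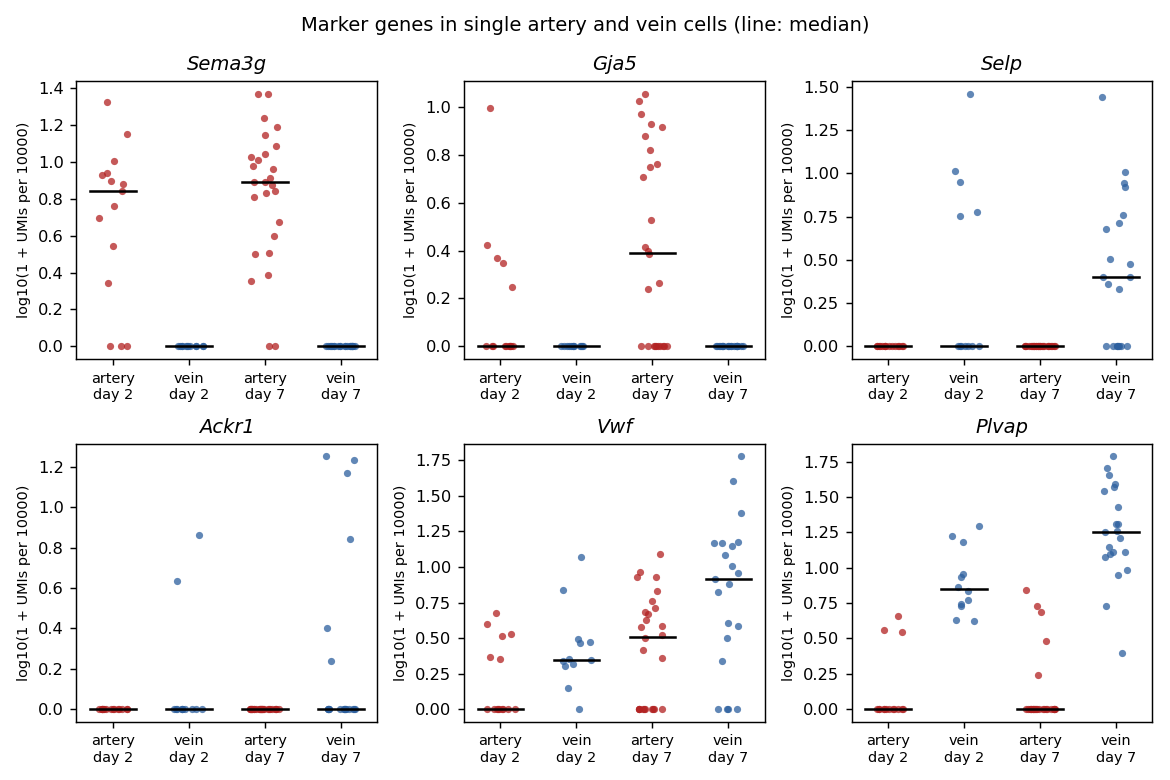
Each point is 1 artery (red) or vein (blue) cell on day 2 or day 7, the vertical axis gives log10 of 1 plus the UMIs of the gene per 10000 UMIs of that cell, and black lines are medians. Sema3g and Gja5 are at 0 in every vein cell, Selp and Ackr1 are at 0 in every artery cell, and Vwf and Plvap are found in cells of both types.

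Of the 21 day 7 vein cells, 2 carried the genes of lymphatic vessels. These were the only artery or vein cells with a UMI of Prox1, the transcription factor that specifies lymphatic endothelium, and they held 4 and 7 of them. They also held 216 and 175 UMIs of Ccl21a, the chemokine that draws dendritic cells into lymphatics, 22 and 53 of Mmrn1, and 4 and 64 of the hyaluronan receptor Lyve1. Vwf and Ackr1 were at 0 in both, and Selp at 0 and 2. All 11 Prox1 UMIs and all 391 Ccl21a UMIs of the day 7 vein cells were in these cells. Vein values of day 7 that moved by over 1.5 times without them are given with that value.

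Of the 74 artery and vein cells, 9 and 11 artery cells and 8 and 12 vein cells on day 2 and day 7 held at least 3 immune or at least 3 mural UMIs. The list of 12 immune genes summed to between 156 and 179 CPM in the 4 groups of artery and vein cells, against 252 and 175 CPM in capillary cells and 5800 and 6291 CPM in free RNA (barcodes with 1 to 100 UMIs). The list of 14 mural genes, of the smooth muscle cells and pericytes that wrap vessels, summed to 1192 CPM in artery cells on day 2 and to between 256 and 632 CPM in the other 3 groups. A single artery cell held 48.3% of the day 2 arterial sum, with 27 of the 28 Acta2 UMIs (Acta2 is smooth muscle actin). Lists of 9 FAP genes and 9 myofibre genes summed to between 18.3 and 258 CPM and between 25.6 and 563 CPM, with both lists higher on day 7, when free RNA held 12632 and 24890 CPM of them. The remaining cells were 6 and 15 artery cells and 4 and 9 vein cells, and by the rule given next 35 of 389 genes differed between artery and vein in these, against 88 of 1574 in all cells, with 23 in common. The part of such transcripts in the results was not tested beyond the values given without those cells.

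A gene was counted as different where the sums differed at least 2-fold and held at least 30 UMIs together, with counts under 3 taken as 3. Fold values and their intervals are those of the sums as counted, apart from those given as at least a value. Artery differed from vein in the same direction in both libraries for 88 of 1574 genes (5.59%) measured well enough in both, 71 higher in artery (4.51%) and 17 higher in vein (1.08%). Artery differed from capillary for 83 of 4710 genes (1.76%), 43 higher (0.913%) and 40 lower (0.849%), and vein from capillary for 170 of 4773 genes (3.56%), 41 higher (0.859%) and 129 lower (2.7%). With scaling by median of ratios in place of total counts, the genes that set artery apart from capillary were 34 higher and 57 lower. Without the cell with most counts of each gene they were 20 higher and 84 lower. With no minimum of counts they were 978 higher and 40 lower, and the genes that set vein apart were 618 higher and 130 lower. In that setting counts under 3, taken as 3, stand for more CPM in the smaller artery and vein sums than in the capillary sum. Since the annotation used these genes, the counts describe it and are no test of it. A gene can also pass the minimum only through the group where it is high, so counts within a gene list are descriptions. The median log2 ratio of artery to vein over all genes with enough UMIs was -0.08 on day 2 and 0.12 on day 7. The comparisons with capillary cells used the same capillary cells, and the comparisons of artery with vein reuse both sums.

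Artery cells were higher than vein cells in genes of arterial identity. Of the 20 arterial genes listed, 10 held enough UMIs in both libraries, and 8 of these were higher in artery than in vein cells in both: Cxcl12, Dll4, Edn1, Efnb2, Notch4, Sema3g, Sox17 and Unc5b. The median log2 ratio of the arterial genes with enough UMIs in a library was 2.44 on day 2 and 2.68 on day 7. Sema3g was at 616 CPM (487 to 768) in artery cells on day 2 and 695 CPM (574 to 833) on day 7 and at 0 in vein cells, which makes it at least 56.2-fold and 36.6-fold higher against a floor of 3 counts in the vein sum. Its level in capillary cells was 61.5 and 49.6 CPM. Gja5 was at 110 and 240 CPM in artery cells, with 64.3% of the day 2 UMIs from 1 cell, and Gja4 at 110 and 425 CPM. Both were at 0 in vein cells of both libraries.

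Some Notch pathway genes were higher in artery than in vein cells. Dll4, the arterial Notch ligand, was at 450 and 287 CPM in artery cells and at 84.0 and 31.6 CPM in vein cells, a 5.35-fold (3.25 to 9.11) and 9.10-fold (3.64 to 29.3) difference. The receptor gene Notch4 was 3.24-fold and 4.15-fold higher, and Nrarp, a feedback target of Notch, 4.68-fold and 4.19-fold higher. Of 17 Notch pathway genes, 5 held enough UMIs in both libraries and these 3 were higher in both, with list medians of 0.97 and 2.06 on the log2 scale. On day 2, 2 of the 7 with enough UMIs were lower in artery cells, where 7.14% of all genes were lower: the ligand gene Dll1, 4.94-fold (1.54 to 25.2) with 3 UMIs in the artery sum, and Mfng, which modifies Notch receptors, 3.15-fold (1.22 to 10.3). Without cells holding immune or mural UMIs, the day 7 log2 ratio of Notch4 was 0.93 instead of 2.05. Hey1, a transcription factor induced by Notch, was at 158 and 275 CPM in artery cells and at 1 and 0 counts in the vein sums, with 21 UMIs in the day 2 comparison and so short of the minimum. Jag2, another ligand, was higher in artery than in capillary cells, at 126 and 120 CPM against 34.8 and 56.3 CPM.

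Efnb2, the arterial membrane ligand that faces EphB4 on veins, was at 379 and 353 CPM in artery cells and 14.6 and 50.6 CPM in vein cells. The ratios were 25.9-fold (9.49 to 99.0) and 6.99-fold (3.33 to 16.9), and on day 7 the log2 ratio was 2.81, or 3.65 without the 2 Prox1 cells. Sox17, which acts upstream of arterial Notch genes, was 5.37-fold and 3.29-fold higher in artery cells. Unc5b, a guidance receptor, was at 387 and 329 CPM against 3.65 and 63.2 CPM, with 90.0% of the 10 vein UMIs of day 7 from 1 cell. Its day 7 log2 ratio was 2.38, or 3.97 without the Prox1 cells. The vasoconstrictor gene Edn1 was 5.89-fold and 2.65-fold higher in artery cells, with 63.3% of the day 2 UMIs from 1 cell.

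Genes outside the arterial list were also among the highest ratios of artery to vein, as was Cxcl12 within it. The chemokine Cxcl12 was at 2880 CPM (2592 to 3192) and 1515 CPM (1334 to 1714) in artery cells and at 526 and 259 CPM in vein cells, 5.48-fold (4.50 to 6.69) and 5.85-fold (4.19 to 8.35). It was found in 14 of 15 and 25 of 26 artery cells and in 12 of 12 and 13 of 21 vein cells, so the types overlapped in detection. Igfbp3, a carrier of insulin-like growth factors, was at 671 and 2186 CPM in artery cells, and in vein cells at 91.3 CPM on day 2 and 0 on day 7. The ratios were 7.35-fold (4.66 to 12.0) and at least 115-fold against the floor. Sema7a, a membrane semaphorin, was 6.74-fold and 14.5-fold higher in artery cells, the nuclear receptor gene Nr4a1 9.57-fold and 6.44-fold, and glutamine synthetase (Glul) 5.86-fold and 12.3-fold. With the cells holding immune or mural UMIs left out, the day 2 log2 ratio of Glul was 0.49 instead of 2.55. Rgs5, a gene of pericytes, was 12.5-fold and 9.32-fold higher in artery cells, and 41.4% of its day 2 arterial UMIs were in 1 cell.

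Vein cells were higher than artery cells in genes of venous identity. Of 14 venous genes listed, 7 held enough UMIs in both libraries, and 5 were higher in vein than in artery cells in both: Ackr1, Lrg1, Nrp2, Plvap and Selp. The median log2 ratio of artery to vein was -2.19 over the venous genes with enough UMIs on day 2 and -3.80 on day 7. Selp was at 467 CPM (390 to 556) and 480 CPM (378 to 601) in vein cells and at 0 in artery cells, at least 19.7-fold and 26.7-fold higher. Plvap was at 683 and 2168 CPM against 55.2 and 71.9 CPM, 12.4-fold (5.88 to 31.2) and 30.2-fold (17.0 to 58.9). Lrg1, a secreted glycoprotein that modifies TGF-beta signalling in vessels, was at 862 and 916 CPM in vein cells, 4.55-fold and 13.9-fold higher than in artery cells. Of 18 leukocyte adhesion genes, 8 held enough UMIs in both libraries, with 1 higher in vein cells (Selp) and 1 higher in artery cells (Podxl), and list medians of -0.02 and -0.04 on the log2 scale. The day 2 log2 ratio of Podxl, 1.07, was 0.42 without the cells over 20000 UMIs. The 3 genes Selp, Plvap and Lrg1 were also low in capillary cells, with Selp at 0.809 and 0 CPM, Plvap at 20.2 and 137 CPM and Lrg1 at 29.9 and 22.5 CPM.

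Vwf and Nr2f2 divided the types on day 7 alone by the rule used, by which 5.76% of genes were higher in vein cells on that day. Vwf was at 161 and 1131 CPM in vein cells and 103 and 240 CPM in artery cells, a ratio of 1.57 (0.829 to 3.17) on day 2 and 4.72 (3.34 to 6.83) on day 7. Nr2f2, the nuclear receptor of veins, was at 69.4 and 259 CPM in vein cells and at 0 in artery cells of both libraries. Its 19 UMIs on day 2 fell short of the minimum, and on day 7 it was at least 14.4-fold higher. Nrp2, a co-receptor for VEGF and semaphorins of veins and lymphatics, was 2.20-fold (1.17 to 4.50) and 4.57-fold (2.82 to 7.74) higher in vein cells.

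Several other genes were higher in vein than in artery cells. Aplnr, the apelin receptor, was at 318 and 828 CPM in vein cells and 7.89 and 77.9 CPM in artery cells, and Col15a1, a collagen of basement membranes, at 460 and 518 CPM against 47.3 and 108 CPM. The water channel gene Aqp1 was 2.84-fold and 4.0-fold higher in vein than in artery cells, the phosphodiesterase gene Pde2a 2.85-fold and 12.0-fold, and the fatty acid carrier gene Fabp5 2.47-fold and 3.51-fold. In capillary cells, Aqp1, Pde2a and Fabp5 were within 2-fold of vein cells in both libraries. Gda, guanine deaminase, was 2.87-fold and 3.23-fold higher in vein cells, and this order turned on day 2 after each cell was thinned to 2000 UMIs (log2 ratio of artery to vein 0.68). Thbs1, an inhibitor of angiogenesis, was 2.55-fold higher in vein cells on day 2, but its log2 ratio of artery to vein was 0.03 without the cells over 20000 UMIs. On day 7, 64.7% of the venous Thbs1 UMIs were in 1 cell, and the log2 ratio of -3.58 was -2.23 without the Prox1 cells.

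**Figure D2:**
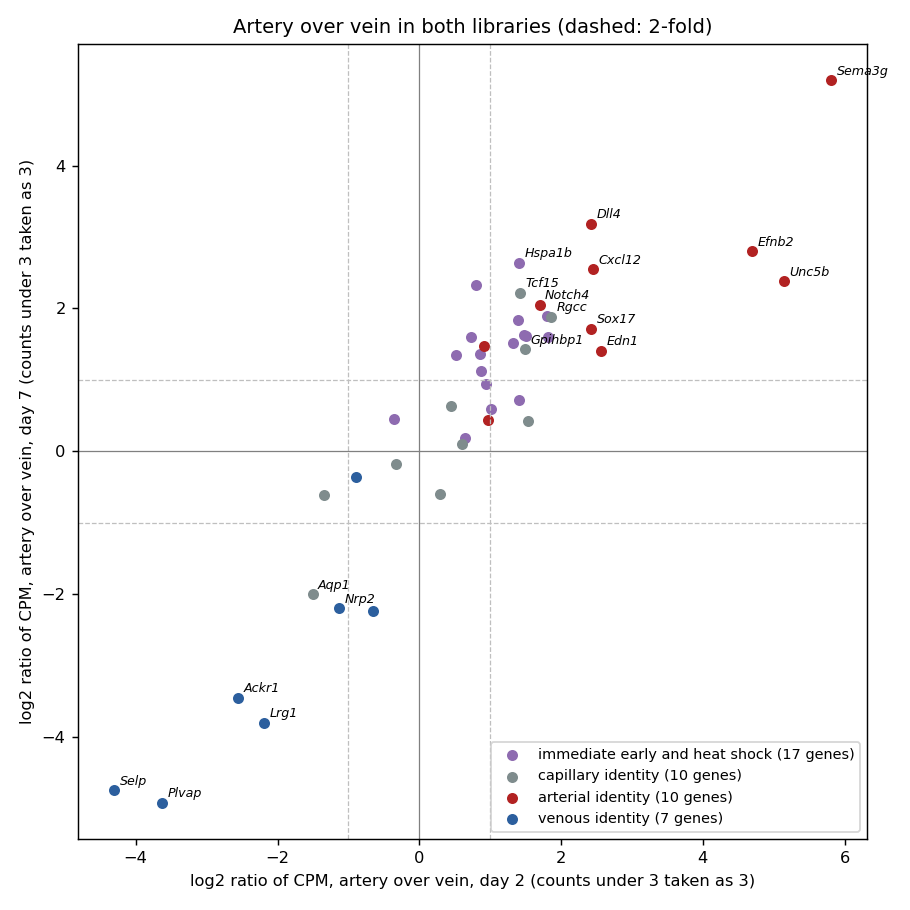
Each point is a gene of the arterial, venous, capillary or immediate early and heat shock list with at least 30 UMIs over the artery and vein sums in both libraries, placed by its log2 ratio of CPM, artery over vein, on day 2 (horizontal axis) and day 7 (vertical axis), with counts under 3 taken as 3. Dashed lines mark a 2-fold difference, arterial genes such as Sema3g and Efnb2 lie to the upper right, venous genes such as Selp and Plvap to the lower left, and most immediate early and heat shock genes lie above 0 on both axes.

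Some genes of capillaries were higher in artery than in vein cells. From the list of 14 capillary genes, 10 held enough UMIs in artery and vein cells in both libraries. Gpihbp1, Rgcc and Tcf15 were higher in artery cells in both and Aqp1 was lower, with list medians of 0.53 and 0.64 on the log2 scale. Gpihbp1, which anchors lipoprotein lipase to the vessel wall, was at 773 and 1126 CPM in artery cells, 274 and 417 CPM in vein cells, and 866 and 1936 CPM in capillary cells. Vein cells were 3.16-fold (2.50 to 4.05) and 4.64-fold (3.63 to 6.03) below capillary cells. Rgcc, a cell cycle regulator, and Tcf15, a transcription factor that drives fatty acid uptake in heart and muscle vessels, were 3.63-fold and 2.66-fold higher in artery than in vein cells on day 2 and 3.70-fold and 4.67-fold on day 7. Without the cells over 20000 UMIs, the day 2 log2 ratios of Gpihbp1 and Tcf15 were 0.89 and 0.65, below a 2-fold difference. Of 14 capillary genes, 13 held enough UMIs in the comparisons with capillary cells. None of the 13 differed in artery cells in both libraries, and 4 were lower in vein cells (Gpihbp1, Lpl, Rgcc and Timp4). On day 7 alone, 2 of 14 were lower in artery than in capillary cells and 1 was higher. The list median was -0.56, where 7.74% of all genes were lower and 4.69% higher.

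Flt1 and Kdr were higher in artery than in vein cells, 2 of the 10 VEGF and angiopoietin receptor genes with enough UMIs in both libraries, while Nrp2 was lower. The list medians were 0.48 on day 2 and -0.01 on day 7 on the log2 scale. Flt1 and Kdr, the receptors of VEGF-A, were 2.51-fold and 2.16-fold higher in artery than in vein cells on day 2 and 2.14-fold and 2.17-fold on day 7. The tight junction gene Cldn5 was at 1207 and 1395 CPM in artery cells and 577 and 221 CPM in vein cells. On day 2 its log2 ratio of 1.07 was 0.48 without the cells over 20000 UMIs, and the day 7 log2 ratio of Flt1, 1.10, was 0.95 without the Prox1 cells, while that of Cldn5 was 3.63 instead of 2.66. In sums without cells holding immune or mural UMIs, the day 7 log2 ratio of Kdr was 0.01 instead of 1.12. Emcn, an anti-adhesive glycoprotein of veins and capillaries, went the other way, at 221 and 323 CPM in artery cells and 672 and 746 CPM in vein cells. The other 12 of the 16 pan-endothelial genes, Pecam1 and Cdh5 among them, did not differ 2-fold in both libraries.

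Genes of the immediate early and heat shock responses, which cells switch on within minutes of stress and which tissue digestion is known to raise, were higher in artery than in vein cells. The 18 genes of this list summed to 26570 CPM in artery cells and 11841 CPM in vein cells on day 2, and to 21380 and 7602 CPM on day 7. Of 17 genes with enough UMIs, 7 were higher in artery cells in both libraries (Atf3, Dusp1, Fosb, Hspa1a, Hspa1b, Jund and Zfp36) and 0 were lower, with list medians of 1.02 and 1.52 on the log2 scale. Against capillary cells, 0 of 17 differed in artery cells in both libraries, with medians of 0.13 on day 2 and 0.65 on day 7. On day 7 alone, 5 of 17 were higher, where 4.69% of all genes were. In vein cells 8 of 18 and 4 of 17 were below capillary cells on day 2 and day 7, with medians of -0.99 and -0.63. Of all genes, 12.6% and 10.7% were lower in that comparison. Hspa1a, a heat shock protein 70 gene, was at 7189 and 5552 CPM in artery cells and 2071 and 1498 CPM in vein cells, 3.47-fold (3.12 to 3.86) and 3.71-fold (3.21 to 4.29). Jund was 3.51-fold and 3.03-fold higher. Per cell, the list held between 6809 and 63525 CPM in artery cells on day 2 (median 20647) and between 1288 and 25404 CPM in vein cells (median 9380). On day 7 artery cells ranged from 768 to 59280 CPM (median 13073) and vein cells from 594 to 32570 CPM (median 1749), so the ranges of the types overlapped on both days. Klf4, a flow-responsive factor that is also induced by stress, was 2.58-fold and 3.02-fold higher in artery cells. Without cells holding immune or mural UMIs, the day 2 log2 ratios of Klf4 and Dusp1 were 0.82 and 0.91, below a 2-fold difference. The sphingosine-1-phosphate receptor gene S1pr1 was 2.21-fold and 2.12-fold higher, with a day 2 log2 ratio of 1.14 that was 0.44 without the cells over 20000 UMIs. The part that this response had in the other differences between artery and vein was not tested.

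**Figure D3:**
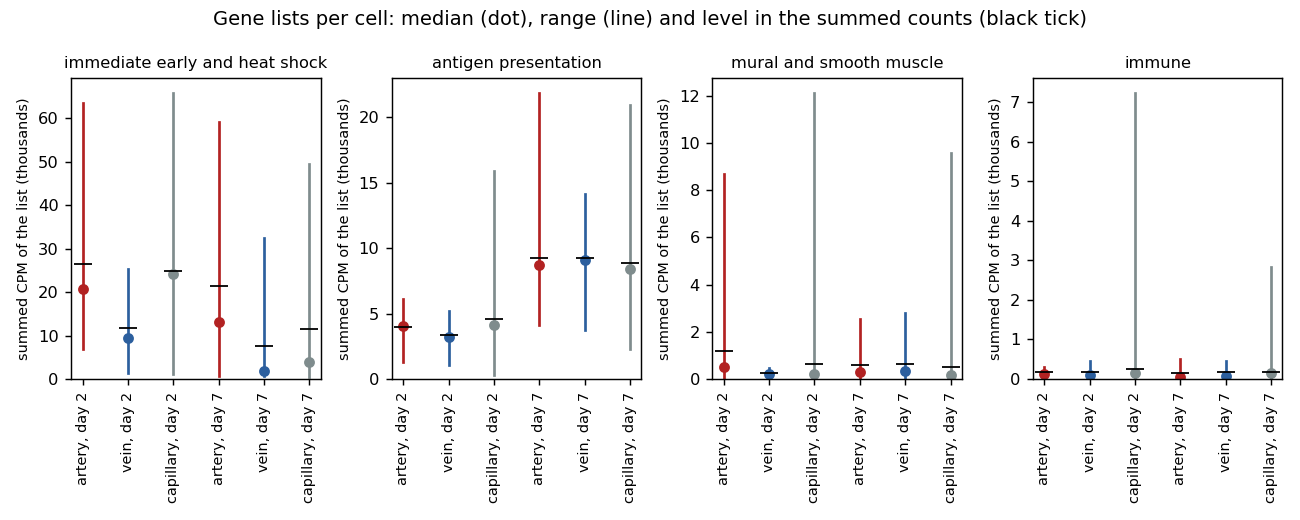
Each panel is a gene list, and the vertical axis gives its summed CPM, in units of 1000, in artery, vein and capillary cells, with day 2 to the left and day 7 to the right. Dots mark the median over cells, vertical lines run from the lowest to the highest cell, and black ticks mark the level in the summed counts. The immediate early and heat shock list is lower in vein than in artery cells on both days, and the antigen presentation list is higher on day 7 in all 3 types.

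Set against capillary cells, artery cells were set apart by a small group of genes. Hey1 was 8.48-fold (4.42 to 16.2) and 8.15-fold (5.04 to 13.4) higher in artery cells, Stmn2, a microtubule regulator, 5.32-fold and 8.03-fold, and Sema3g 10.0-fold (7.21 to 13.9) and 14.0-fold (9.82 to 20.3). With Efnb2 and Unc5b, these were 5 of the 12 arterial genes with enough UMIs in both libraries. With the cells holding immune or mural UMIs left out, the day 7 log2 ratios of Efnb2 and Unc5b to capillary cells were 0.85 and 0.49. Lrrc32, which holds latent TGF-beta at the cell surface, was at 434 and 204 CPM in artery cells and 108 and 32.7 CPM in capillary cells, 4.03-fold and 6.23-fold higher. Igfbp3 was 3.15-fold and 6.78-fold higher, the early response gene Apold1 2.41-fold and 2.66-fold, and Cmip 2.36-fold and 2.43-fold. Without its highest cell, the day 2 log2 ratio of Cmip was 0.83 instead of 1.24.

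Of 15 basement membrane genes, Col18a1 and Fn1 were higher in artery than in capillary cells in both libraries and 0 were lower, with list medians of -0.08 and -0.44 on the log2 scale. Col18a1, whose collagen gives rise to endostatin, was at 174 and 144 CPM in artery cells and 12.9 and 19.2 CPM in capillary cells, 13.4-fold (6.73 to 27.3) and 7.50-fold (3.87 to 14.9). Fn1, fibronectin, was 3.97-fold and 10.6-fold higher, with a day 2 log2 ratio of 1.99 that was 1.10 without its highest cell. Fbln5, an organiser of elastic fibres, was at 182 and 1030 CPM in artery cells against 3.24 and 30.4 CPM, and was short of the minimum on day 2. Of the 2 elastic matrix genes with enough UMIs in both libraries, 0 were higher in both. Vegfc, the ligand that guides lymphatic growth, was at 71.0 and 317 CPM in artery cells, and 1 and 9 UMIs of it were found in all capillary cells of day 2 and day 7. Ace, which makes the vasoconstrictor angiotensin, was 2.81-fold and 3.36-fold higher in artery cells.

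Of 7 tip cell and sprouting genes with enough UMIs in both libraries, 2 were lower in artery than in capillary cells (Apln and Trp53i11) and 0 were higher, with list medians of -1.29 on day 2 and 0.10 on day 7 on the log2 scale. Apln, the apelin peptide of sprouting tip cells, was at 1378 and 76.6 CPM in capillary cells and at 15.8 and 0 CPM in artery cells, with 2 UMIs in 1 of 15 artery cells on day 2 and 0 UMIs on day 7. Trp53i11, another gene of tip cells, was 14.5-fold (4.91 to 70.4) and 2.97-fold (1.82 to 5.17) lower in artery cells. The inducible nitric oxide synthase gene Nos2 was at 138 and 107 CPM in capillary cells and at 7.89 and 24.0 CPM in artery cells. Lgals1, the imprinted gene Mest, Pde2a and Cyp4b1 were between 2.53-fold and 7.34-fold lower in artery cells, the last from the 2 UMIs of Mest on day 7 (1.96 to 61.7).

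Set against capillary cells, vein cells were higher in some genes of the venous, leukocyte adhesion, haemostasis and elastic matrix lists. Selp was at least 142-fold higher on day 7, and Ackr1, at 139 and 196 CPM in vein cells and 0 in capillary cells, at least 57.2-fold and 58.0-fold. Icam1, the ligand of leukocyte integrins, was at 267 and 259 CPM in vein cells and 102 and 87.9 CPM in capillary cells, 2.62-fold (1.93 to 3.52) and 2.95-fold (1.97 to 4.36). Its day 2 log2 ratio was 1.39, and 0.56 without the cells over 20000 UMIs. Of 18 leukocyte adhesion genes, 10 held enough UMIs in both libraries, and Icam1 and Selp were higher while Jam3 was lower in both, with list medians of 0.07 and -0.47 on the log2 scale. On day 7, 4 of the 10 were lower in vein cells (F11r, Icam2, Jam3 and Podxl), where 10.7% of all genes were lower. The day 7 log2 ratio of F11r was -0.61 instead of -2.40, and that of Icam2 -0.95 instead of -1.20, without cells holding immune or mural UMIs. In sums without cells holding immune or mural UMIs, Jam3 was below a 2-fold difference, at -0.32 and -0.96 on the log2 scale. E-selectin (Sele) was found in 1 of 12 and 2 of 21 vein cells, with 6 and 3 UMIs, and at 0 in artery and capillary cells.

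In haemostasis, Vwf was 3.97-fold (2.59 to 6.08) and 13.8-fold (10.4 to 18.3) higher in vein than in capillary cells. Entpd1, the ectonucleotidase CD39 that removes the platelet activator ADP, was at 205 and 335 CPM against 47.7 and 86.8 CPM, 4.29-fold and 3.86-fold. These were 2 of the 8 haemostasis genes with enough UMIs. Eln, elastin, was at 91.3 and 392 CPM in vein cells and 5.66 and 29.3 CPM in capillary cells, and Fbln2 at 164 and 1081 CPM against 38.8 and 385 CPM. Spint2, a serine protease inhibitor, was 12.5-fold (7.46 to 21.6) and 4.95-fold (2.93 to 8.33) higher in vein cells. Calcrl, the adrenomedullin receptor, was 4.52-fold and 2.32-fold higher than in capillary cells, and it was also 2.62-fold and 3.40-fold higher than in artery cells.

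Of the 170 genes that set vein apart from capillary cells, 129 were lower and 41 higher, a balance that turned with no minimum of counts (130 and 618). Of the 10 arterial genes with enough UMIs in both libraries, 6 were lower in vein than in capillary cells: Cxcl12, Dll4, Efnb2, Notch4, Sema3g and Unc5b. Efnb2 was intermediate in capillary cells, at 379, 147 and 14.6 CPM in artery, capillary and vein cells on day 2 and at 353, 153 and 50.6 CPM on day 7. Without the Prox1 cells, the day 7 log2 ratios of vein to capillary were -2.45 for Efnb2 instead of -1.60 and -2.84 for Unc5b instead of -1.26. Without cells holding immune or mural UMIs, Notch4 was below a 2-fold difference, at -0.44 and -0.78 on the log2 scale. Pcp4l1, Nos2, Cdkn1c, Arhgap18 and Crem were among the lowest in vein cells relative to capillary cells, each at 5 UMIs or fewer in the day 2 vein sum. Without the cells over 20000 UMIs, the day 2 log2 ratios of Pcp4l1, Cdkn1c and Arhgap18 were -0.73, -0.56 and -0.29, below a 2-fold difference. Among interferon genes, 3 of the 17 with enough UMIs were lower as well (Ifit3, Isg15 and Rsad2), with Isg15 at 65.7 and 183 CPM in vein cells and 220 and 429 CPM in capillary cells.

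Between day 2 and day 7, artery cells differed 2-fold in 457 of 1770 genes (25.8%), 262 higher on day 7 (14.8%) and 195 lower (11%), and vein cells in 785 of 2479 genes (31.7%), 323 higher (13.0%) and 462 lower (18.6%). With scaling by median of ratios in place of total counts, the artery genes were 336 higher and 146 lower. The artery balance turned, to 94 higher and 118 lower, without cells holding immune or mural UMIs. Capillary cells differed in 1659 of 7275 genes (22.8%), 875 higher (12.0%) and 784 lower (10.8%). The median log2 ratio over all genes was -0.21 in vein cells, -0.0028 in artery cells and -0.01 in capillary cells. Without the 6 deep cells of day 2, the vein genes were 229 higher and 204 lower.

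The matrix glycoprotein gene Sparcl1 was far higher on day 7 in both vessel types. It was at 55.2 CPM (22.2 to 114) in artery cells on day 2, with UMIs in 4 of 15 cells, and at 2084 CPM (1871 to 2315) on day 7, with UMIs in 26 of 26, 37.7-fold higher (18.1 to 94.5). In vein cells it was at 43.8 CPM with UMIs in 4 of 12 cells and at 1226 CPM with UMIs in 19 of 21, 28.0-fold higher (15.7 to 55.1). Capillary cells were at 115 and 2480 CPM, so the day 2 and day 7 levels of all 3 types lay well apart. Free RNA held 27.5 and 489 CPM.

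Genes of interferon response and antigen presentation were higher on day 7 in both vessel types. Of 22 interferon genes, 12 held enough UMIs in artery cells and 8 of these were higher, and in vein cells 10 of 12 were higher, with 0 lower in either. In capillary cells 16 of 19 were higher. Of all genes, 14.8% were higher on day 7 in artery, 13.0% in vein and 12.0% in capillary cells. The median log2 ratio of day 7 to day 2 over the interferon genes with enough UMIs was 1.57 in artery, 2.01 in vein and 1.60 in capillary cells. Ifi27l2a was at 55.2 and 773 CPM in artery cells and 14.6 and 284 CPM in vein cells, 14.0-fold (6.60 to 35.5) and 19.5-fold (7.10 to 74.5) higher on day 7. Its venous log2 ratio of 4.28 was 3.64 without the Prox1 cells. Isg15 was 2.79-fold higher in vein cells, but its log2 ratio was -0.17 without cells holding immune or mural UMIs.

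Antigen presentation genes were higher on day 7 as well. Of the 13 genes of that list, 6 held enough UMIs, all of the class I pathway, and the class II genes were short of the minimum. In artery cells 5 of the 6 were higher and in vein cells 5 of the 6, with medians of 1.16 and 1.41 on the log2 scale. In capillary cells 5 of 11 were, with a median of 0.94. The shares of all genes higher on day 7 were 14.8% in artery, 13.0% in vein and 12.0% in capillary cells. H2-K1 was at 1121 and 2509 CPM in artery cells and 957 and 2863 CPM in vein cells, and B2m, the light chain of class I molecules, at 1168 and 2467 CPM and 950 and 2591 CPM. Capillary levels of B2m were 1564 and 2898 CPM. H2-T23, a non-classical class I gene, was 24.3-fold (6.45 to 205) higher in artery cells, from 2 UMIs on day 2. Free RNA of B2m was also higher on day 7, at 896 and 1635 CPM.

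Many fatty acid and capillary genes were higher on day 7 in both vessel types and in capillary cells. Fabp4, the fatty acid carrier of muscle endothelium, was at 5240 and 12146 CPM in artery cells, 4295 and 18396 CPM in vein cells, and 3742 and 18031 CPM in capillary cells. The scavenger receptor and fatty acid transporter gene Cd36 was 3.95-fold (2.95 to 5.37) higher in artery cells and 5.61-fold (4.34 to 7.33) in vein cells. Fabp5 was 5.32-fold higher in vein cells. Of the fatty acid genes with enough UMIs, 5 of 7 were higher in artery cells and 4 of 8 in vein cells. Of the capillary genes, 8 of 13 and 6 of 11 were, with 0 lower in either list. In capillary cells 8 of 11 fatty acid genes and 12 of 14 capillary genes were higher, also with 0 lower. Over all genes, 14.8% were higher on day 7 in artery, 13.0% in vein and 12.0% in capillary cells. With the cells holding immune or mural UMIs left out, the arterial log2 ratios of Fabp4, H2-K1 and B2m were 0.73, 0.76 and 0.71, below a 2-fold difference.

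Some arterial genes and elastic fibre genes were higher in artery cells on day 7, and some of both lists were higher in capillary cells as well. Of the 16 arterial genes measured, 5 were higher (Fbln5, Gja4, Gja5, Nrp1 and Stmn2) and 0 were lower, with a median log2 ratio of 0.13. Over all artery genes, 14.8% were higher. In capillary cells 4 of 16 were higher and 2 lower, with a median of 0.37. Gja4 was 3.85-fold higher (2.15 to 7.39), found in 7 of 15 and 20 of 26 cells, and Gja5 2.17-fold (1.15 to 4.31), in 5 of 15 and 16 of 26 cells. In sums without cells holding immune or mural UMIs, the log2 ratio of Gja5 was 0.87 instead of 1.12 and that of Nrp1 0.16 instead of 1.28. Sema3g, Efnb2, Hey1 and Dll4 did not differ 2-fold between days. Fbln5, Fbln2 and Ltbp4, which organise elastic fibres and hold latent TGF-beta, were 5.68-fold, 7.47-fold and 2.68-fold higher, and these were all 3 elastic matrix genes with enough UMIs. Their median log2 ratio was 2.50, against 3.23 over the 7 of 7 elastic matrix genes that were higher in capillary cells. FAP genes were also higher on day 7 in capillary cells, 5 of 5 with a median of 3.20, while 0 of the 9 held enough UMIs in artery or in vein cells. Free RNA of the FAP list was at 1157 and 12632 CPM, and its part in these values was not tested.

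Some genes higher on day 7 in artery cells were at or near 0 in vein cells. Alpl, tissue non-specific alkaline phosphatase, was at 31.6 and 377 CPM in artery cells, in 3 of 15 and 25 of 26 cells, and at 0 in vein cells of both libraries. Its capillary levels were 6.47 and 58.6 CPM. Rbp7, a carrier of retinol, was at 86.8 and 844 CPM in artery cells, at 3.65 and 0 CPM in vein cells, and at 7.28 and 159 CPM in capillary cells. The chaperone Clu was at 7.89 and 461 CPM, from 1 UMI to 77. Igfbp4, a second carrier of insulin-like growth factors, was 12.6-fold (5.91 to 32.0) higher in artery cells and 26.8-fold (9.96 to 102) in vein cells, from day 2 sums of 7 and 4 UMIs. Without cells holding immune or mural UMIs, the venous log2 ratio of Igfbp4 was 0.83 instead of 4.75, and free RNA held 28.8 and 404 CPM of it. The transcripts 8430408G22Rik, Ccdc85b and AW112010 were 15.9-fold (5.21 to 79.3), 10.6-fold (3.40 to 53.6) and 9.65-fold (4.49 to 24.7) higher in artery cells.

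Many venous genes were higher in vein cells on day 7. Of 12 venous genes measured, 8 were higher (Il1r1, Nr2f2, Nrp2, Plvap, Ptgs1, Slco2a1, Vcam1 and Vwf) and 0 were lower, with a median log2 ratio of 1.32. Over all vein genes, 13.0% were higher. The venous list was also higher in capillary cells, 5 of 8 with 0 lower and a median of 1.07, and in artery cells 2 of 4 were higher and 1 lower. Vwf was 7.04-fold higher (5.04 to 10.0), with a highest cell of 8 UMIs on day 2 and 52 on day 7, and Plvap 3.17-fold higher (2.65 to 3.81). Ptgs1, which makes the precursor of prostacyclin and thromboxane, was at 29.2 and 291 CPM, in 6 of 12 and 18 of 21 cells. Nr2f2 was 3.73-fold higher (2.12 to 6.81). Selp, Ackr1 and Lrg1 did not differ 2-fold, with ratios of 1.03 (0.763 to 1.38), 1.41 (0.849 to 2.33) and 1.06 (0.858 to 1.31). With the cells holding immune or mural UMIs left out, which left 4 vein cells on day 2 and 9 on day 7, the log2 ratio of Vwf was 0.85 instead of 2.82, that of Plvap 0.78 instead of 1.67, that of Nrp2 0.65 instead of 1.47 and that of Slco2a1 0.68 instead of 1.17. Vcam1, the ligand of integrins on monocytes and lymphocytes, held 76.2% of its day 7 UMIs in 1 cell, and its log2 ratio of 1.01 was -0.38 without the highest cell of each day.

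The elastic matrix genes measured in vein cells were also higher on day 7, with a median log2 ratio of 2.41. Eln was 4.29-fold (2.66 to 7.13), Fbln2 6.58-fold (4.71 to 9.35), Ltbp4 3.40-fold and the small proteoglycan gene Bgn 22.5-fold (11 to 53.5) higher on day 7, all 4 elastic matrix genes with enough UMIs. Bgn was found in 3 of 12 vein cells on day 2 and 17 of 21 on day 7, and in 0 of 15 and 5 of 26 artery cells. Abca1, which exports cholesterol, was at 7.30 and 335 CPM, 45.9-fold higher (12.1 to 388). Chp2 was found in 0 of 12 and 15 of 21 vein cells, at least 19.0-fold higher, and Sult1a1 was 32.0-fold higher (8.26 to 274). Sp100, a nuclear body protein gene induced by interferon, was at 3 UMIs on day 2 and 37 on day 7, 21.3-fold higher (6.76 to 108). Fxyd6 and Fgl2, at 0 and 2 UMIs on day 2, reached 284 and 265 CPM on day 7, with 55.6% and 45.2% of their UMIs in 1 cell. Without the Prox1 cells the log2 ratios of Fxyd6 and Fgl2 were 3.17 and 3.82.

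Some genes were higher on day 2 in both vessel types. Tnfrsf12a, the receptor of the injury cytokine TWEAK, was at 260 and 24.0 CPM in artery cells and 205 and 19.0 CPM in vein cells, 10.9-fold (3.87 to 42.2) and 10.8-fold (3.51 to 53.9) higher on day 2. Plaur, the urokinase receptor, was 16.1-fold (6.53 to 51.3) higher in artery cells, in 14 of 15 cells on day 2 and 4 of 26 on day 7. Hbegf, a growth factor of the EGF family, was at 387 and 12.6 CPM in vein cells and 560 and 102 CPM in artery cells. The tubulin gene Tubb6 was 12.1-fold higher in artery cells and 9.38-fold in vein cells, and AA467197 18.0-fold and at least 10.6-fold. The same 3 genes, Tubb6, Tnfrsf12a and Hbegf, were at 521, 355 and 757 CPM in day 2 capillary cells and at 74.4, 37.2 and 92.4 CPM on day 7.

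The chaperone genes Hspa9 and Cct3 and the nucleoside kinase gene Nme1 were 6.44-fold, 5.93-fold and 8.24-fold higher on day 2 in artery cells, and Mybbp1a and Plk3 5.93-fold and 6.81-fold. In vein cells Srm, which makes spermidine, was 8.44-fold higher on day 2, Nap1l1 8.24-fold, Tuba1c 20.2-fold (5.39 to 170, with 2 UMIs on day 7) and Nes, the intermediate filament nestin, 7.86-fold. Bag1, a co-chaperone gene, was 8.09-fold (3.31 to 25.7) and Esd 7.80-fold (3.82 to 18.5) higher on day 2 in vein cells. Gdf15, a stress cytokine, was at 371 CPM in artery cells on day 2 with 66.0% of its 47 UMIs in 1 cell, against 1 UMI on day 7. Gapdh and Pkm were 4.17-fold and 3.71-fold higher on day 2 in artery cells and 3.79-fold and 2.05-fold in vein cells, the 2 of 8 glycolysis genes that differed in each type, while 25.8% of all artery genes and 31.7% of all vein genes differed. The heat shock protein gene Hsp90aa1 was 2.33-fold and 4.29-fold higher on day 2. Of 17 immediate early and heat shock genes, 1 was lower on day 7 in artery cells and 5 in vein cells, where 11% and 18.6% of all genes were lower.

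**Figure D4:**
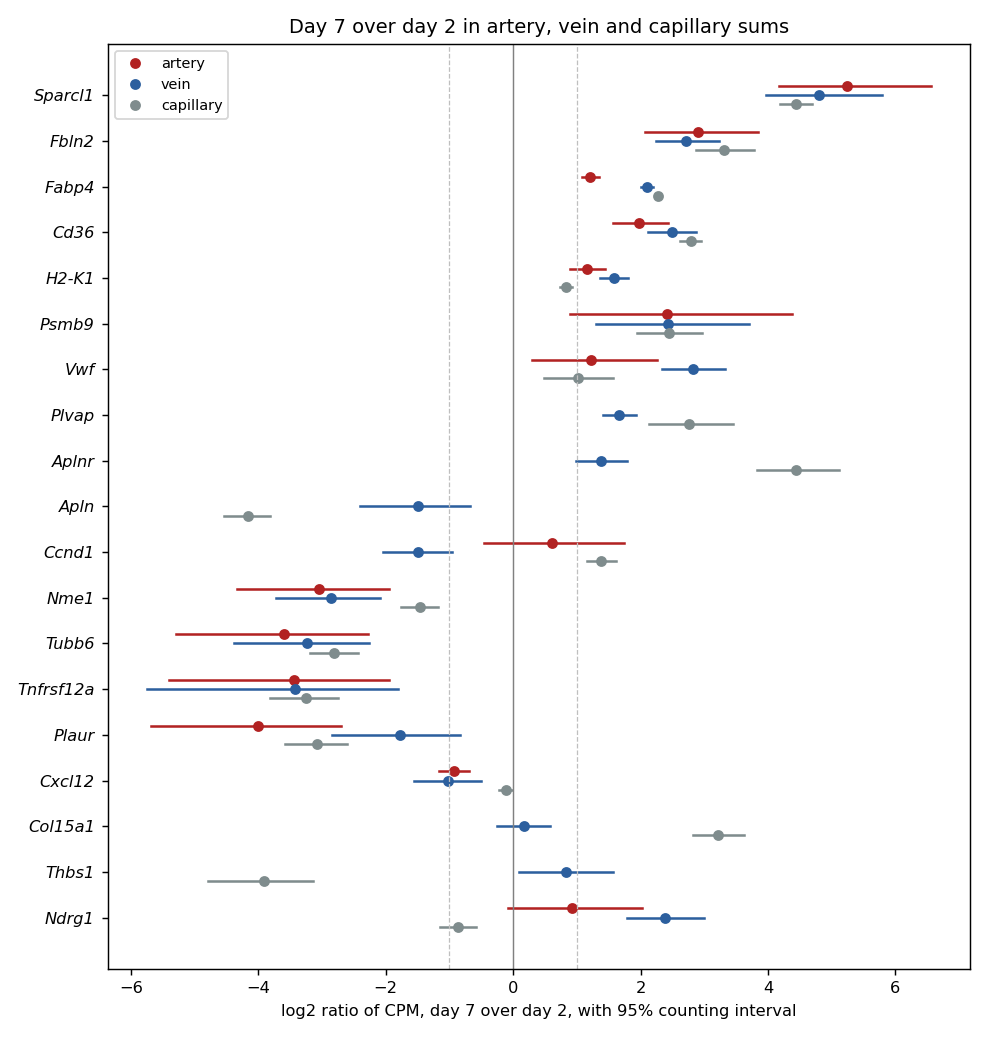
Points give the log2 ratio of CPM, day 7 over day 2, in artery (red), vein (blue) and capillary (grey) sums for 19 genes, with 95% counting intervals as lines, and dashed lines mark a 2-fold difference. A type is shown where the gene held at least 30 UMIs over both days and at least 1 on each. Sparcl1 and Fbln2 lie to the right in all 3 types, Tubb6 and Tnfrsf12a to the left, and Ccnd1, Ndrg1 and Thbs1 lie on opposite sides of 0 in vein and capillary cells. Without the vein cells holding Prox1, which are included here, Thbs1 fell below 0 in vein cells too.

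Vein and capillary cells did not move together for every gene. The cell cycle regulator gene Ccnd1 was at 639 and 227 CPM in vein cells and at 198 and 516 CPM in capillary cells. Aplnr was 2.61-fold (1.97 to 3.46) higher on day 7 in vein cells, and it went from 18.6 to 402 CPM in capillary cells. Col15a1 was at 460 and 518 CPM in vein cells and at 50.2 and 465 CPM in capillary cells, so that the types were 9.18-fold apart on day 2 and 1.11-fold apart on day 7. Ndrg1, a gene induced by hypoxia, was at 117 and 607 CPM in vein cells and at 309 and 170 CPM in capillary cells. Thbs1 was at 121 and 215 CPM in vein cells and 236 and 15.8 CPM in capillary cells, and its venous log2 ratio of day 7 to day 2 was 0.83, or -0.52 without the Prox1 cells. Apln, the ligand of Aplnr, was lower on day 7 in vein cells (267 and 94.8 CPM) and in capillary cells (1378 and 76.6 CPM). These differences between types were not tested.

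Further genes had a different ratio of day 7 to day 2 in vein and in capillary cells. Itpr1, a calcium release channel, was at 32.9 and 272 CPM in vein cells and at 88.2 and 100 CPM in capillary cells, found in 7 of 12 and 17 of 21 vein cells. Il6st, the shared receptor of the interleukin-6 family, was 4.01-fold (2.97 to 5.48) higher on day 7 in vein cells and 1.19-fold lower in capillary cells. Sp100, the class I gene H2-Q6 and Abca1 were higher on day 7 in both types, with the larger ratio in vein cells, and Sh2d5 was lower in both, 9.54-fold (2.44 to 82.0) in vein and 32.5-fold (10.9 to 160) in capillary cells, with 2 and 3 UMIs on day 7. Cd63, a protein of late endosomes and secretory granules, was at 135 and 145 CPM in vein cells and at 158 and 34.9 CPM in capillary cells. In the other direction, Bag1, Cisd1, Dnajb11, Kars and Srp72 were between 4.28-fold and 8.09-fold lower on day 7 in vein cells and within 1.37-fold of the day 2 level in capillary cells. Pcolce was 3.18-fold lower in vein cells and 1.46-fold higher in capillary cells, and Plcb1 was 1.79-fold lower and 2.94-fold higher. The day 2 vein sum was the deepest per cell, and the part of depth in these differences was not tested.

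Of 18 cell cycle genes, Mki67 and Top2a, markers of dividing cells, were at 0 UMIs in all 74 artery and vein cells, which at 3 counts allows up to 23.7 CPM in the day 2 artery sum, the smallest of the 4. The whole list was not at 0. It summed to 442 CPM in artery and 442 CPM in vein cells on day 2 and to 144 and 196 CPM on day 7, against 355 and 223 CPM in capillary cells, and between 10 and 11 of its genes were at 0 in each group of artery or vein cells. Of the 6 genes with enough UMIs in vein and capillary cells on day 2, 2 were higher in vein cells and 1 was lower, with a median log2 ratio of 0.87, while 3.49% of all genes were higher and 12.6% lower in that comparison. Mcm2, of the helicase that opens DNA for replication, was at 47.5 CPM in vein and 17.0 CPM in capillary cells, 2.80-fold (1.29 to 5.85), and Tyms, thymidylate synthase, 2.03-fold (1.17 to 3.42). Stmn1, a microtubule regulator, was lower, with 2 UMIs in the vein sum. The log2 ratio of Tyms, 1.02, was 0.91 with scaling by median of ratios and 0.96 without cells holding immune or mural UMIs.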

How the data were processed

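Single cells were measured in 1 library per day with the 10x Genomics 3′ assay. The submitters' processing notes name Cell Ranger 3.1.0, Seurat 3.1.5 and the mm10 build, and the matrix header gives Cell Ranger 3.0.1. The values used were the deposited UMI counts per gene and barcode, not normalized by the authors. As an alternative, the authors' SoupX 1.4.5 estimated counts, from which free RNA had been taken, were summed as deposited, without rounding. Cell types came from the authors' annotation table, which named clusters from known genes after integration. The study's methods name a doublet caller, the table carries no doublet call, and no further caller was run. All members held at least 750 genes and 1000 transcripts and at most 30% mitochondrial transcripts. Annotated cells of other types outside these limits on cells were left out. The called barcodes numbered 4836 and 4889, with 41123913 and 32356088 UMIs, and 4 barcode sequences occurred in both libraries, 0 of them members. The files pair gene identifiers with symbols (27998, of which 27645 matched GENCODE vM21).

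Counts were summed per library and type and divided by their total. Poisson (levels), conditional binomial (ratios) and Clopper-Pearson (shares) intervals cover counting error only, and the interval of a difference between shares combined the separate intervals. A sum of 0 allows 3 counts, and a share of 0 cells allows 3 cells with a UMI. With 1 library per day no p-value was computed, since the cells of a library share 1 animal. Named genes were the list members and marker genes described, and the genes of highest ratio past 30 counts whose UMIs were in at least 20% of cells of the higher group (10 per direction for artery against vein, each day comparison and the difference of day ratios between vein and capillary, 6 against capillary). Some of the genes measured are not reported here by name. Members and lists were chosen with earlier results of these data known. Other limits on cells, SoupX values, other scalings, thinning to 2000 UMIs, other count minimums and sums without single cells were tried. Leaving out vein cells with Prox1 and cells over 20000 UMIs was chosen after seeing the data. Steps were tested on simulated data. Python 3.11.15, numpy 2.4.6, scipy 1.17.1, pandas 2.3.3 and matplotlib 3.10.9 were used.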

Additional observations from a re-analysis of the deposited data

Results flagged for a closer look

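Among the genes named or listed, 3 lay on opposite sides of no change between days in artery and vein cells with the counting intervals of both types leaving out 0, and this difference was not tested. The vein sums of Igfbp3 and the artery sums of Tagln were short of the minimum of 30 UMIs over both days. Igfbp3 was 3.97 higher on the log2 scale in its day 7 to day 2 ratio in artery than in vein cells, with counts under 3 taken as 3. Its artery UMIs went from 85 to 365 (log2 ratio 1.70), and its vein UMIs from 25 to 0. Eng, a TGF-beta co-receptor of endothelial cells, had a difference of -0.82, with 111 and 108 UMIs in artery cells (log2 ratio -0.44) and 266 and 200 in vein cells (0.38). Tagln, a smooth muscle gene, had a difference of -3.36, with 15 and 5 UMIs in artery cells (log2 ratio -1.98) and 44 and 66 in vein cells (1.38).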

How the results depend on the processing

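Over 13 summary values (shares of cells, marker shares and counts of genes), 69 of their values under other settings stayed within the spread allowed and 31 moved. Artery and vein cells were 0.472% and 0.378% of 3178 annotated cells on day 2 and 0.814% and 0.657% of 3196 on day 7. These denominators are the cells with a named type that passed the limits on cells. The vein share of endothelial cells was 1.83% on day 2 without cells over 20000 UMIs and 3.91% on day 7 without cells holding at least 3 immune or mural UMIs. After thinning to 2000 UMIs, Selp, Ackr1 or Vwf was found in 50.0% and 61.9% of vein cells on day 2 and day 7, and Gja5 or Sema3g in 76.9% of day 7 artery cells. The counts of different genes, in the order artery against vein, artery against capillary, vein against capillary, day 7 against day 2 in artery and the same in vein, were 88, 83, 170, 457 and 785. They were 35, 48, 61, 212 and 204 without cells holding immune or mural UMIs, 18, 22, 37, 116 and 114 after thinning, 325, 1018, 748, 1836 and 2666 with no minimum of counts, which turned the balance of vein against capillary to 618 higher and 130 lower and that of day 7 against day 2 in vein to 1731 higher and 935 lower, and 27, 25, 51, 104 and 216 with a minimum of 100 counts. The fewer cells or UMIs of these settings leave fewer genes measured. Without cells over 20000 UMIs, vein differed from capillary in 99 genes and between days in 433. Without the vein cells holding Prox1, the 3 counts that use vein cells were 92, 162 and 765.

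Over 375 values of named genes, 3176 alternatives stayed within the spread allowed, 453 moved and 6 that were at least 2-fold turned in direction. These were the day 2 ratio of artery to vein of Gda after thinning (log2 ratio 0.68) and of Thbs1 without cells over 20000 UMIs (0.027), the day ratio in artery of Il6 without cells holding immune or mural UMIs (-1.53), and the day ratio in vein of Isg15 (-0.17) and Vcam1 (-0.81) in the same setting and of Vcam1 without its highest cells (-0.38). Values under 2-fold are not among these 6, such as the day ratio of Thbs1 in vein (0.83, and -0.52 without the vein cells holding Prox1, -0.58 without cells holding immune or mural UMIs and -0.45 without its highest cells). The cause was not tested. Thinning put 59 of 304 named differences below 2-fold, leaving out cells with immune or mural UMIs 56 of 322, leaving out cells over 20000 UMIs 22 of 339, and SoupX values 1 of 349. No paired analysis was run, and no result comes from a test. Each library holds both vessel types, and the counts of genes that differed the same way in both libraries use this, while each day is 1 library, so no replicate could be left out.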

Other observations

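Some barcodes within the limits on cells had no row in the annotation table, 680 on day 2 and 477 on day 7. UMIs of both Gja5 and Sema3g were found in 3 and 2 of these barcodes. UMIs of both Selp and Ackr1 were found in 0 of 680 and 0 of 477, which, with 3 barcodes taken as the limit of a count of 0, allows up to 0.441% and 0.629% of barcodes with such UMIs.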
